A study of Rattus norvegicus with 26 samples.

Results

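This section describes the transcripts of 4 secreted liver proteins, A2m, Mug1, Serpina3c and Apcs, in cultured rat hepatocytes exposed to increasing doses of TCDD or PCB 126. They are 4 of 4736 genes that the platform's annotation gives a probe set, a group of short probes for 1 transcript, of their own. All probe sets assigned to 1 of these genes alone were taken, which gave 9 of the 8740 on the array (6 for A2m and 1 each for Mug1, Serpina3c and Apcs). Of these 9, 8 were among the 5197 probe sets kept after dim ones were left out. The genes were chosen by their measured dose slopes, as genes that were lower at higher doses while some other acute phase genes were higher, so these slopes and the differences from vehicle are given as a description and carry no test.

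The series compared how TCDD, a chlorinated dibenzo-p-dioxin, and PCB 126, a coplanar chlorinated biphenyl, change gene expression in primary hepatocytes, liver cells taken from the animal and kept in short-term culture. Each activates the aryl hydrocarbon receptor (AhR), which enters the nucleus when bound by such ligands and switches on genes of xenobiotic metabolism. All cells came from livers of female Sprague Dawley rats (Crl:CD(SD)IGS BR), and all cultures were kept for 48 hours with TCDD, PCB 126 or the vehicle, 0.5% DMSO. The cells formed 2 pools of 3 animals each, so each pool is 1 biological unit. The TCDD group had 5 doses with an array from each pool (0.01 pM, 1 pM, 0.1 nM, 10 nM, 316 nM) and a further pair of doses, 10 pM and 1 nM, from pool 2. For PCB 126 each pool had arrays at 1 pM, 0.1 nM, 10 nM, 1000 nM and 10000 nM, with 10 pM and 1 nM again from pool 2. The vehicle group had 1 array per pool, for 26 arrays in all, 15 of pool 2 and 11 of pool 1. The small number of arrays limits precision, and p-values measure the spread between arrays of shared pools.

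A2m encodes the protease inhibitor alpha-2-macroglobulin, which closes around a protease after the protease cuts its bait region. In rats it is a strongly induced acute phase protein, driven in hepatocytes by interleukin 6 together with glucocorticoids through STAT3. Mug1, murinoglobulin 1, is a monomeric relative of A2m that is abundant in the plasma of healthy rats and falls in the rat acute phase response. Serpina3c belongs to the serpins, inhibitors that trap a protease by a change of shape, and its listed synonyms include those of a kallikrein-binding protein and of the rat Spi2 family. Apcs encodes serum amyloid P component, a pentraxin, a ring-forming plasma protein made in the liver that binds amyloid fibrils and chromatin.

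In the rat gene table of the GRCr8 assembly, A2m and Mug1 lie on chromosome 4, where Mug1l1 is the 1 protein-coding gene between them and Mug2 is the next after Mug1. Serpina3c lies on chromosome 6 and Apcs on chromosome 13. RefSeq promoter sequences of GRCr8 matched 2 of the 4 genes, Mug1 (chr4:156748145-156748444, plus strand) and Apcs (chr13:87906459-87906758, minus strand). They are shown because no other member matched. In pool-adjusted means both genes were lower than vehicle at the 2 highest doses of each chemical. In pool 2, however, Mug1 was at -0.41 and 0.28 relative to vehicle at 10 and 316 nM TCDD. Each window of 300 bases ends shortly after the annotated start of the gene. Capitals mark matches to CTGGGAA, a core of interleukin 6 response elements.
Mug1: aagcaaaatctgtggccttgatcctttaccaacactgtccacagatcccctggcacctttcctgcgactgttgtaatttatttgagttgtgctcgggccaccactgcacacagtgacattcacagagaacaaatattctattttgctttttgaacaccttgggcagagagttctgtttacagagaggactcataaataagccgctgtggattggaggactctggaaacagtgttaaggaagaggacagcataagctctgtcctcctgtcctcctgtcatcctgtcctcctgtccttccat
Apcs: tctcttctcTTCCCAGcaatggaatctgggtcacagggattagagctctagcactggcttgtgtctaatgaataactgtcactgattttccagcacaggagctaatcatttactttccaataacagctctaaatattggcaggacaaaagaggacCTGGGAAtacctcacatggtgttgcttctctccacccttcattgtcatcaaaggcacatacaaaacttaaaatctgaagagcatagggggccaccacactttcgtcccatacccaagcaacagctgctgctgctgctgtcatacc

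Both strands of these promoters were searched for 4 motifs. The AhR core GCGTG was in neither window and is held by 31.1% of 27457 rat promoters of the same length. The STAT motif TTCNNNGAA (8.68% of promoters) and the C/EBP core TTGCNNAA (10.5%) were also in neither window. The element CTGGGAA, which 10.9% of promoters hold and which was added after the sequences had been seen, had 2 matches in Apcs, TTCCCAG beginning at -241 and CTGGGAA beginning at -95 relative to the start, and none in Mug1. A match describes the letters of the window and does not show a site in use.

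Values are the deposited log2 expression values, on which a difference of 1 is a doubling of signal. Exposure was checked with Cyp1a1, a P450 gene that responds strongly to the activated AhR. It was 12.37 in pool 2 and 12.53 in pool 1 at 10 nM TCDD and 12.30 and 12.41 at 1000 nM PCB 126, against 3.28 and 3.45 with vehicle. The array labelled PCB 126 at 1 pM of pool 2 stood apart, with Cyp1a1 at 10.80 against 3.21 in pool 1 at that dose and 7.91 at 10 pM in pool 2. For the members, tests between the chemicals and on PCB 126 doses were therefore repeated without it. PCB 126 slopes within pool 2, correlations over pool 2 and the PCB 126 slopes of all other genes are given only with it. The hepatocyte markers on the array, 5 of 6 listed, had values up to 14.50 (Alb) and a summed level between 14.88 and 15.38 on every array.

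The 4 genes had values lower by 1.41 to 2.65 log2 at the 2 highest doses than with vehicle (pool-adjusted means of the brightest probe sets), except A2m with TCDD, at -1.25 ± 0.36 (SE). Serpina3c was at -1.88 ± 0.45 with TCDD and -2.09 ± 0.45 with PCB 126, a ratio of 3.68 and 4.25. Mug1 was at -2.15 ± 0.75 with TCDD and -2.12 ± 0.75 with PCB 126, and these values rest on the vehicle arrays, which differ between the pools. They were -1.11 and -1.09 without the vehicle array of pool 1 and -3.19 and -3.16 without that of pool 2 (TCDD and PCB 126). At 10 and 316 nM TCDD Mug1 was at -0.41 and 0.28 relative to its own vehicle array in pool 2, and at -4.25 and -4.22 in pool 1. Apcs was at -1.66 ± 0.43 with TCDD and -1.41 ± 0.43 with PCB 126. A2m was at -2.65 ± 0.36 with PCB 126, a ratio of 6.26, by its brightest probe set. Its other kept probe sets had smaller differences with PCB 126. They were -1.60 ± 0.55 for rc_AA900582_at, -0.53 ± 0.30 for M22670cds_at, -0.26 ± 0.19 for M22670cds_g_at and -0.05 ± 0.27 for rc_AI113046_at. With TCDD these probe sets lay between -0.82 and -0.25. Across the array 0.904% of probe sets were called lower in this comparison with TCDD and 1.48% with PCB 126 (linear models with limma, adjusted p below 0.05), and of the 8 kept member probe sets 1 (Serpina3c) and 2 (Serpina3c and A2m) were. The member counts are no test, since the choice used the fall with dose. In bulk RNA, fewer cells of a type and less RNA per cell cannot be told apart.

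A2m is represented first by its brightest probe set, M23566exon_s_at. In pool 2 its log2 value was 9.06 with vehicle and 8.21, 8.90, 7.90, 6.29, 6.53, 6.62 and 8.19 from the lowest to the highest of the 7 TCDD doses. Pool 1 had 7.37 with vehicle and 7.62, 7.13, 4.04, 5.65 and 7.41 over the 5 TCDD doses. Both pools thus had their lowest value at 0.1 nM TCDD, and at 316 nM pool 1 was back at 0.04 above its vehicle array while pool 2 stayed below its own.

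With PCB 126, A2m in pool 2 was 9.06 with vehicle and 8.88, 8.62, 8.59, 7.39, 7.19, 6.73 and 6.77 over the 7 doses in order. In pool 1 it was 7.37 with vehicle and 7.37, 7.46, 5.55, 3.97 and 4.80 over the 5 doses. Here the lowest value of both pools was at 1000 nM, and no array at or above 10 nM came within 1 log2 of its own pool's vehicle array. In pool-adjusted means, A2m was 8.21 ± 0.29 (SE) with vehicle. With TCDD it was 5.17 ± 0.29 at 0.1 nM, 6.13 ± 0.29 at 10 nM and 7.80 ± 0.29 at 316 nM. With PCB 126 it was 8.02 ± 0.29 at 0.1 nM, 6.37 ± 0.29 at 10 nM, 5.35 ± 0.29 at 1000 nM and 5.78 ± 0.29 at 10000 nM.

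**Figure D1:**
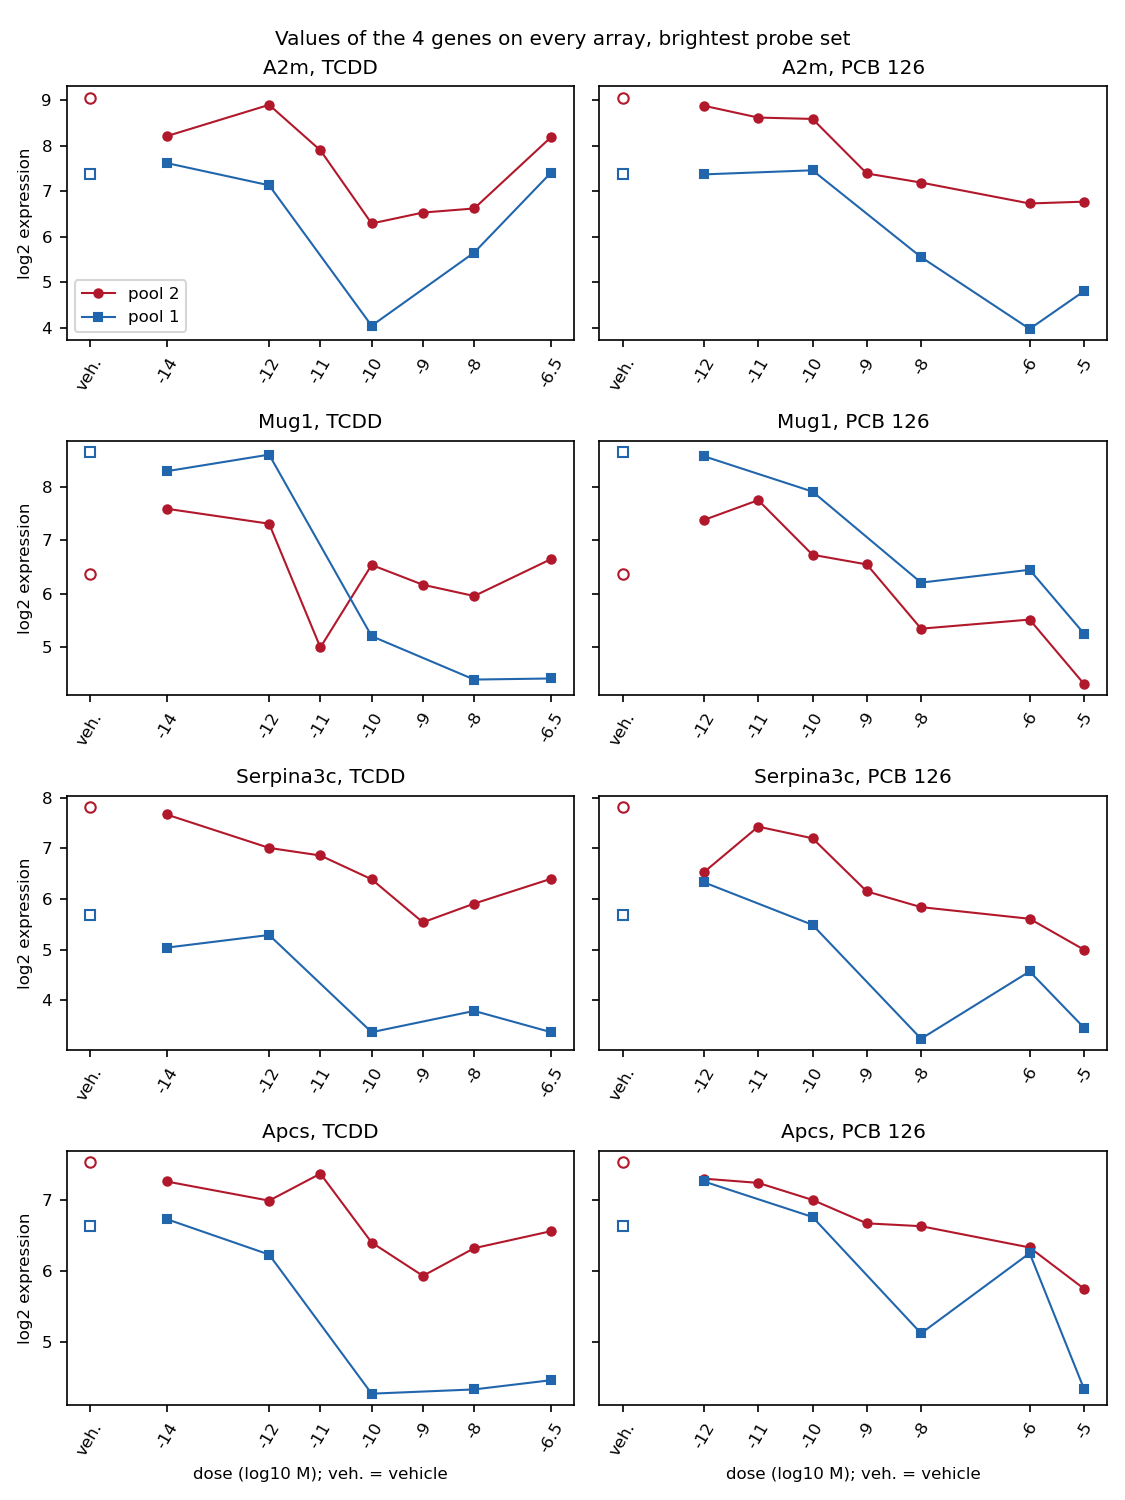
Log2 expression (vertical axis) of A2m, Mug1, Serpina3c and Apcs, each by its brightest probe set, against the dose of TCDD (left) or PCB 126 (right) in log10 M. Filled red circles are arrays of pool 2 and filled blue squares arrays of pool 1, joined by lines within a pool, and open symbols at the left edge are the vehicle arrays. A2m has its lowest TCDD values, 6.29 in pool 2 and 4.04 in pool 1, at -10 and is higher again at -6.5.

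Mug1 had the widest spread of values among the 4 genes in pool 1. In pool 2 its log2 value was 6.37 with vehicle and 7.59, 7.31, 5.0, 6.54, 6.17, 5.96 and 6.65 over the 7 TCDD doses. Pool 1 had 8.64 with vehicle and 8.29, 8.60, 5.21, 4.40 and 4.42 over the 5 TCDD doses. All TCDD arrays at or above 0.1 nM lay below those at or below 1 pM in each pool, but in pool 2 the vehicle array itself lay below the arrays of the lowest doses. The share of all probe sets separated in this way is not given, and the choice used the fall, so the separation only describes the values. With PCB 126 the values of pool 2 over its 7 doses were 7.38, 7.75, 6.73, 6.55, 5.35, 5.52 and 4.32. Those of pool 1 over its 5 doses were 8.57, 7.91, 6.21, 6.45 and 5.26. The lowest value with PCB 126 was at the highest dose in both pools, 4.2-fold below vehicle in pool 2 and 10.5-fold in pool 1. The largest gap of any member was that of Mug1 at 10 nM TCDD in pool 1, 19.0-fold below vehicle.

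A further 3 probe sets name Mug1 together with Mug2, Cpamd8 or Mug1l1 and were not counted as members, since related genes can share their signal. The brightest, J03524_s_at, was 10.21 in pool 2 and 8.86 in pool 1 at 10 nM TCDD and 10.55 and 9.14 at 10 nM PCB 126, against 11.92 and 11.39 with vehicle. The other 2 were lower than vehicle in pool 1 but not in most of pool 2. M22360_s_at was 5.89 in pool 2 and 6.31 in pool 1 at 10 nM TCDD, against 5.37 and 9.19 with vehicle. M22993cds_s_at was 6.15 and 6.99 at that dose, against 5.5 and 9.52 with vehicle. In pool 2 only 1 of 7 TCDD arrays was below vehicle for each of them. Over the arrays of a pool the 3 probe sets had Pearson r of 0.69 to 0.94 with the Mug1 probe set in pool 2 and 0.94 to 0.97 in pool 1, a description of probe sets that may share targets.

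Serpina3c differed most between the pools in level. In pool 2 its log2 value was 7.81 with vehicle and 7.67, 7.01, 6.86, 6.39, 5.54, 5.91 and 6.40 over the 7 TCDD doses. Pool 1 had 5.68 with vehicle and 5.04, 5.29, 3.37, 3.79 and 3.37 over the 5 TCDD doses. Every TCDD array of both pools was below its pool's vehicle array, and the arrays at or above 0.1 nM did not overlap those at or below 1 pM in either pool. As for Mug1, the share of all probe sets separated in this way is not given and the choice used the fall. With PCB 126 the values of pool 2 over its 7 doses were 6.53, 7.43, 7.20, 6.15, 5.84, 5.61 and 5.0. Those of pool 1 over its 5 doses were 6.33, 5.49, 3.24, 4.57 and 3.46. The 6.53 in pool 2 is from the array at 1 pM that stood apart in Cyp1a1, and it lay below the next dose and below the vehicle array. The pool-adjusted mean of Serpina3c was 6.75 ± 0.37 with vehicle. With TCDD the means were 4.88 ± 0.37 at 0.1 nM, 4.55 ± 0.54 at 1 nM, 4.85 ± 0.37 at 10 nM and 4.89 ± 0.37 at 316 nM, which differ from each other by less than their standard errors.

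Apcs, the pentraxin, had the narrowest range among the brightest probe sets. In pool 2 its log2 value was 7.53 with vehicle and 7.26, 6.99, 7.37, 6.40, 5.93, 6.32 and 6.56 over the 7 TCDD doses. In pool 1 it was 6.63 with vehicle and 6.73, 6.23, 4.27, 4.33 and 4.46 over the 5 TCDD doses. In each pool all values at 0.1 nM TCDD and above lay below all of those at lower doses, a description with the same limits as for Mug1. With PCB 126 the values of pool 2 over its 7 doses were 7.30, 7.24, 7.0, 6.67, 6.63, 6.33 and 5.75. Those of pool 1 over its 5 doses were 7.26, 6.76, 5.12, 6.25 and 4.34. In pool 2 each dose of PCB 126 was below the one before it, while in pool 1 the array at 1000 nM was higher than its neighbours. The pool-adjusted mean of Apcs was 7.08 ± 0.35 with vehicle. With TCDD the means were 5.34 ± 0.35 at 0.1 nM, 5.40 ± 0.51 at 1 nM, 5.33 ± 0.35 at 10 nM and 5.51 ± 0.35 at 316 nM, within their standard errors of each other.

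At 1 pM TCDD Cyp1a1 was already 9.37 in pool 2 and 9.41 in pool 1, about 6 log2 above vehicle. On the same arrays the pool-adjusted differences from vehicle were -0.20 ± 0.42 (SE) for A2m, 0.45 ± 0.86 for Mug1, -0.60 ± 0.52 for Serpina3c and -0.47 ± 0.50 for Apcs. At 0.1 nM TCDD they were -3.05 ± 0.42 for A2m, -1.64 ± 0.86 for Mug1, -1.87 ± 0.52 for Serpina3c and -1.74 ± 0.50 for Apcs. At 0.1 nM PCB 126, where Cyp1a1 was 10.84 in pool 2 and 11.15 in pool 1, the 4 genes were between -0.40 and -0.19 relative to vehicle.

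The trend over dose was summarised by the slope on log10 dose of each chemical, fitted over all 26 arrays with the pool as a term. Mug1 had -0.38 ± 0.10 log2 per decade of dose with TCDD and -0.44 ± 0.10 with PCB 126. Among 5197 probe sets this was rank 5 from the steepest fall with TCDD and rank 7 with PCB 126. Serpina3c had -0.24 ± 0.06 with TCDD and -0.32 ± 0.06 with PCB 126, and Apcs -0.24 ± 0.06 with TCDD and -0.26 ± 0.06 with PCB 126. A2m (M23566exon_s_at) had -0.14 ± 0.10 with TCDD and -0.42 ± 0.10 with PCB 126. With TCDD 3 of the 8 member probe sets were called lower and 1.46% of all probe sets were. With PCB 126 it was 6 of 8, against 2.69% of all, counts that the choice of these genes used. The member just inside the threshold with TCDD was Serpina3c (adjusted p = 0.0374 in limma) and the one just outside was A2m M22670cds_at (0.0807). With PCB 126 these were A2m rc_AA900582_at (0.0242) and A2m M22670cds_g_at (0.0558). Because the slopes were used in the choice, such values only place the members around the threshold and are no test. M22670cds_g_at also passed the filter only through the 1 pM and 0.1 nM PCB 126 arrays of pool 1.

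The counts were not stable. With TCDD no member was called in fits without 1 of 5 arrays (0.01 pM of either pool, or 1 pM, 10 nM or 316 nM of pool 1) and 1 was without 1 pM of pool 2, and with PCB 126 none was without 1 pM of pool 1. Without the 1 pM PCB 126 array that stood apart, 4 of 8 were called with PCB 126 and the slopes of the brightest probe sets lay between -0.47 and -0.29. Without the highest dose of each chemical, the A2m slope with TCDD was -0.42 ± 0.10, given as a description like the other slopes. With the arrays centred on their medians, no member was called with TCDD, and of all TCDD calls 69 were higher and 34 lower, against 85 and 76 as deposited.

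**Figure D2:**
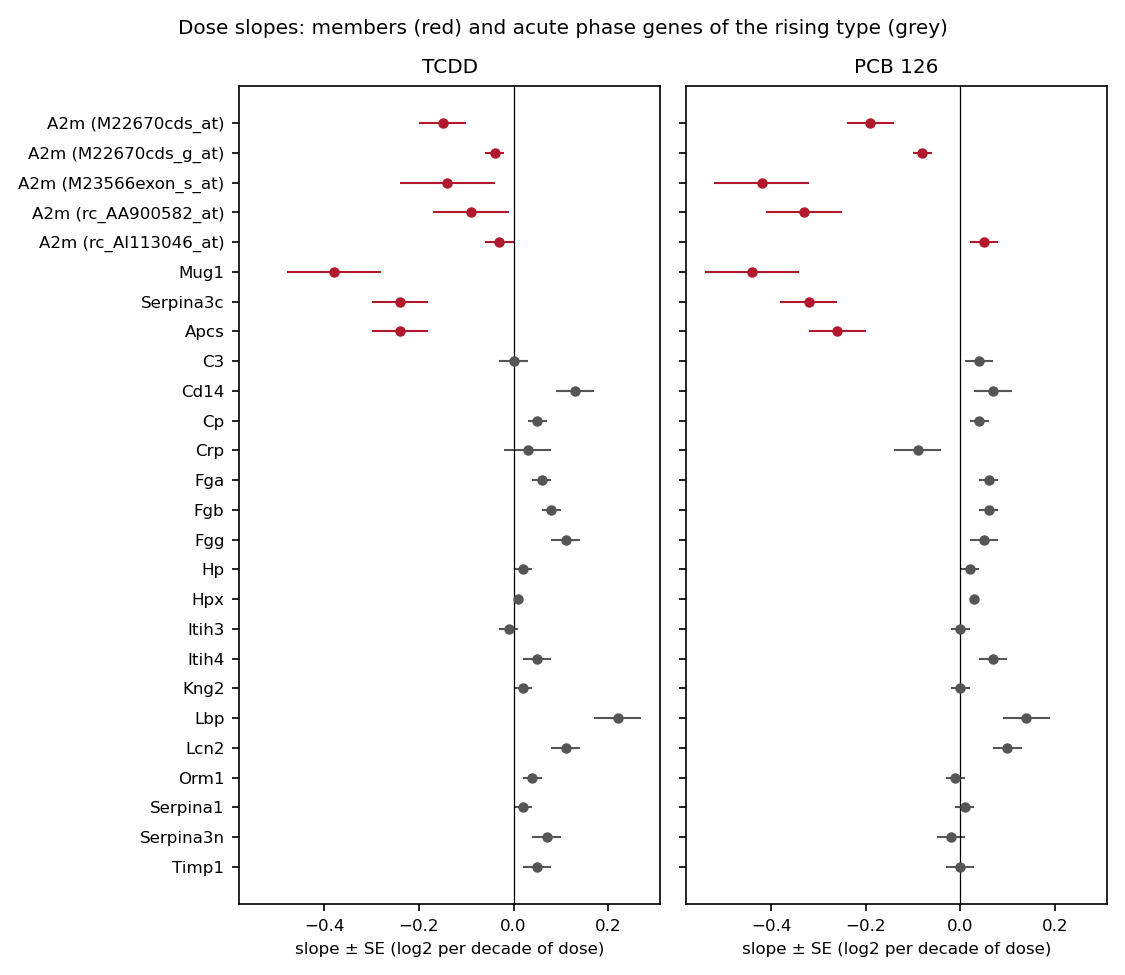
Slopes on log10 dose in log2 per decade (horizontal axis, points with standard errors as bars) for the 8 kept member probe sets in red and 18 acute phase genes of the rising type in grey, with TCDD left and PCB 126 right. Each grey gene is shown by its brightest kept probe set. Mug1 lies at -0.38 with TCDD and -0.44 with PCB 126, and the grey genes lie between -0.01 and 0.22 with TCDD and between -0.09 and 0.14 with PCB 126.

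Whether the fall per decade differed between the chemicals was not part of the choice and could be tested. The slopes cover unlike dose ranges, however, 0.01 pM to 316 nM with TCDD and 1 pM to 10000 nM with PCB 126. A slope difference therefore also compares different stretches of the dose series. The TCDD minus PCB 126 slope difference was 0.27 ± 0.14 for A2m M23566exon_s_at (95% interval -0.02 to 0.56, adjusted p = 0.577 in limma) and 0.24 ± 0.12 for A2m rc_AA900582_at. It was 0.06 ± 0.14 for Mug1 (-0.23 to 0.35), 0.08 ± 0.09 for Serpina3c (-0.11 to 0.27) and 0.02 ± 0.09 for Apcs (-0.16 to 0.20). No member and 0% of all probe sets passed the threshold, while 342 of 5197 had an unadjusted p below 0.05 in limma. Without the PCB 126 array that stood apart, the differences were 0.28 ± 0.15, 0.23 ± 0.13, 0.09 ± 0.15, 0.14 ± 0.09 and 0.04 ± 0.09 in the same order, and again none passed.

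TCDD and PCB 126 differ in how their chlorinated rings are joined, by oxygen bridges in TCDD and directly in PCB 126. They shared 5 doses, 1 pM to 10 nM, at the same exposure time. At 0.1 nM A2m (M23566exon_s_at) was 6.29 in pool 2 and 4.04 in pool 1 with TCDD, against 8.59 and 7.46 with PCB 126. The difference was -2.86 ± 0.42 (95% interval -3.75 to -1.97, adjusted p = 0.0158 in limma), a 7.25-fold lower signal with TCDD, and both pools had the same direction. It was 1 of 2 probe sets called at this dose (0.0385% of the 5197). The other was Apob, higher with TCDD by 1.61 ± 0.22 (adjusted p = 0.0113).

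The call of A2m at 0.1 nM rests on single arrays. Without the TCDD array of pool 1 the difference was -2.48 (adjusted p = 0.232), without the PCB 126 array of pool 1 it was -2.63 (0.325) and without that of pool 2 it was -3.09 (0.249). Without the pool as a block it was -2.86 ± 1.09 with adjusted p = 0.955, and over all alternatives adjusted p ran from 0.00202 to 0.955 in limma, with the difference between -3.24 and -2.48. The other member probe sets with a difference of the same sign at 0.1 nM did not pass, with adjusted p between 0.332 and 0.444 in limma. They were -1.61 ± 0.64 for A2m rc_AA900582_at, -0.97 ± 0.34 for A2m M22670cds_at and -0.28 ± 0.22 for A2m M22670cds_g_at. Serpina3c had -1.47 ± 0.52, Apcs -1.55 ± 0.50 and Mug1 -1.45 ± 0.86. The probe set A2m rc_AI113046_at had 0.37 ± 0.31.

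At the other shared doses no member passed in limma. At 1 pM 0% of all probe sets were called (101 had an unadjusted p below 0.05), and the A2m difference was -0.11 ± 0.42, with an interval of -1.0 to 0.78, and -0.13 ± 0.54 without the array that stood apart. Without the array that stood apart, the differences at 1 pM were -1.26 ± 0.51 for Serpina3c and -1.24 ± 0.59 for Apcs (adjusted p = 0.758 each in limma), against -0.28 ± 0.52 and -0.67 ± 0.50 with it. At 10 pM, with 1 array per chemical from pool 2, 2.62% of probe sets were called. Mug1 was 5.0 with TCDD and 7.75 with PCB 126 there, a difference of -2.75 ± 1.22. The brightest probe set that names Mug1 with other genes, J03524_s_at, was 11.67 with TCDD and 11.76 with PCB 126 on these arrays. The differences were -0.72 ± 0.59 for A2m M23566exon_s_at, -0.57 ± 0.74 for Serpina3c and 0.13 ± 0.71 for Apcs. At 1 nM 0% were called (55 unadjusted) and A2m differed by -0.86 ± 0.59. At 10 nM 0% were called (103 unadjusted), and the A2m difference was -0.24 ± 0.42 (interval -1.13 to 0.65) and that of Serpina3c 0.30 ± 0.52 (-0.82 to 1.42). These intervals do not show that the chemicals act alike at those doses.

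Averaged over the 5 shared doses the values with TCDD were lower than with PCB 126 by a log2 difference of -0.96 ± 0.22 for A2m M23566exon_s_at (adjusted p = 0.0873 in limma), -1.09 ± 0.34 for A2m rc_AA900582_at, -1.04 ± 0.46 for Mug1, -0.67 ± 0.26 for Apcs and -0.53 ± 0.28 for Serpina3c. No member passed, and 0.115% of all probe sets did. Without the PCB 126 array that stood apart the differences were -0.96 ± 0.24 for A2m, -1.12 ± 0.47 for Mug1, -0.79 ± 0.26 for Apcs and -0.72 ± 0.23 for Serpina3c, and again no member passed in limma.

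**Figure D3:**
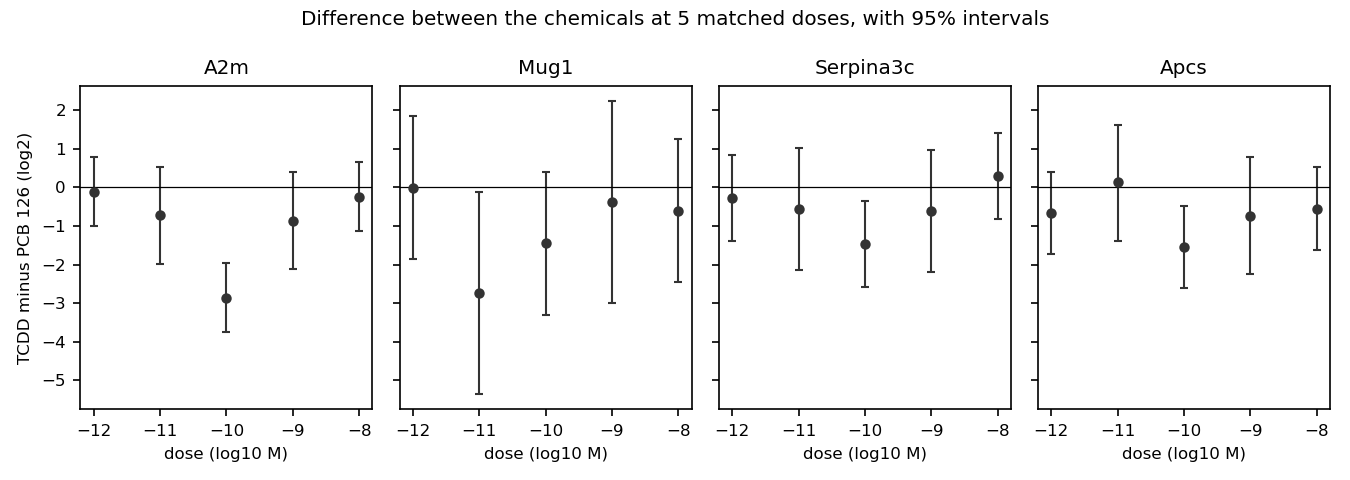
Difference between TCDD and PCB 126 in log2 (vertical axis, TCDD minus PCB 126, points with 95% intervals) at the 5 shared doses in log10 M (horizontal axis), for the brightest probe set of each gene. The interval of A2m at -10, from -3.75 to -1.97, stands below 0, and that at -8 runs from -1.13 to 0.65.

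The 6 A2m probe sets did not behave alike. In PCB 126 slopes, rc_AA900582_at had -0.33 ± 0.08 log2 per decade, M22670cds_at -0.19 ± 0.05, M22670cds_g_at -0.08 ± 0.02 and rc_AI113046_at 0.05 ± 0.03. With TCDD these slopes were -0.09 ± 0.08, -0.15 ± 0.05, -0.04 ± 0.02 and -0.03 ± 0.03 in the same order. M22670cds_g_at passed the filter only through PCB 126 arrays of pool 1, at 1 pM (3.99) and 0.1 nM (3.82). Its fall with PCB 126 is therefore no support. The dimmest, X13983mRNA_at, lay between 1.39 and 2.32 on all arrays and was left out by the filter. For rc_AA900582_at the pools differed in shape. In pool 2 it was 6.64 with vehicle and 6.20, 6.44, 4.03, 3.72, 3.85, 4.30 and 5.70 over the TCDD doses, and in pool 1 it was 3.97 with vehicle and 4.01, 3.84, 3.80, 3.82 and 4.13. The pool 1 values thus stayed close to the filter level of 3.71, while pool 2 repeated the dip and return of M23566exon_s_at. Between these 2 probe sets Pearson r over the arrays was 0.93 in pool 2 and 0.58 in pool 1. The probe set rc_AI113046_at had r of -0.09 with M23566exon_s_at in pool 2 and 0.03 in pool 1.

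**Figure D4:**
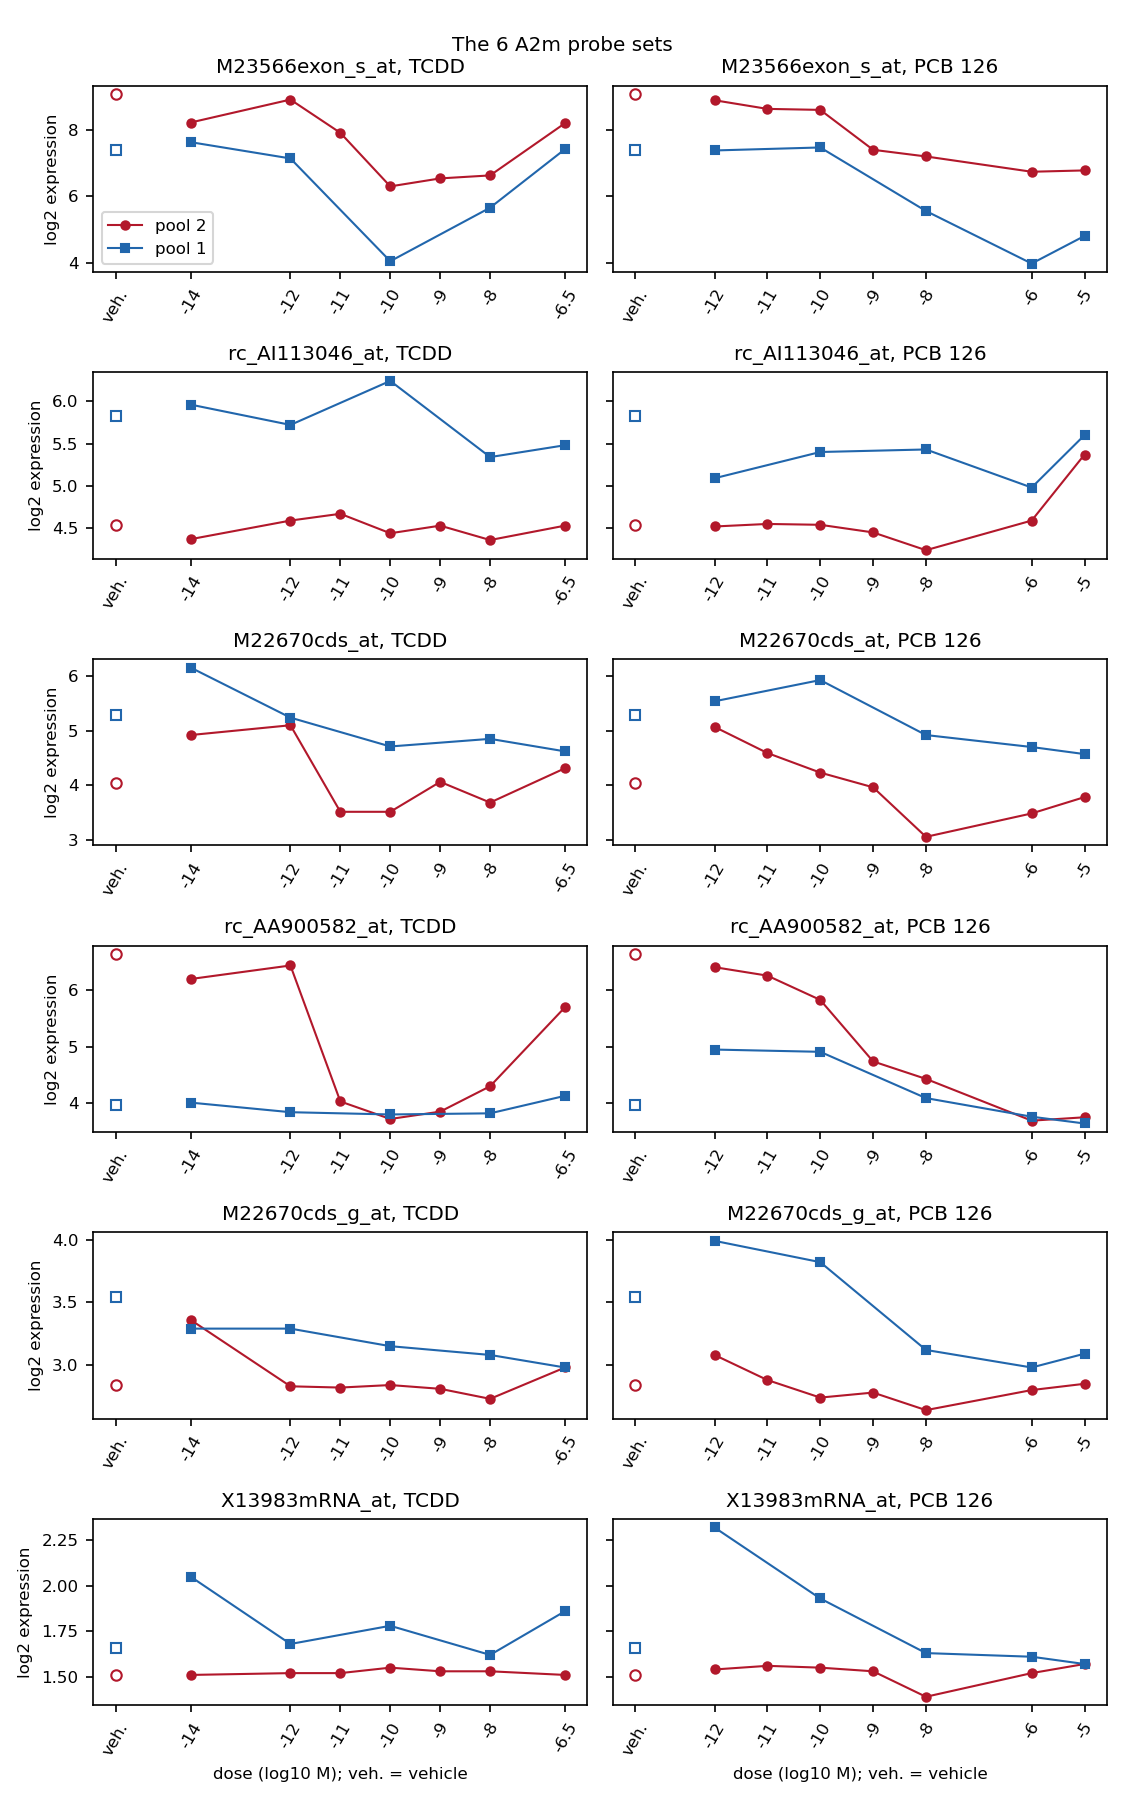
Log2 expression (vertical axis, own scale per row) of the 6 A2m probe sets against dose in log10 M for TCDD (left) and PCB 126 (right), with pool 2 as red circles, pool 1 as blue squares and vehicle arrays as open symbols. The lowest row spans 1.39 to 2.32, and rc_AA900582_at has its pool 1 values near 4 at all TCDD doses.

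A departure from a straight line was tested with a quadratic term of dose. For A2m M23566exon_s_at the TCDD curvature was 0.13 ± 0.04 (unadjusted p = 0.00154, adjusted p = 0.477 in limma), the sign of a dip with a return, seen in both pools. No member passed with TCDD, where 0% of probe sets were called and 288 had an unadjusted p below 0.05. With PCB 126 the A2m curvature was 0.01 ± 0.04, and again 0% were called (227 unadjusted in limma). Without the array that stood apart it was 0.02 ± 0.05.

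The slopes were also compared between the pools. With TCDD Mug1 had a slope of -0.14 ± 0.11 log2 per decade in pool 2 and -0.64 ± 0.11 in pool 1, a difference of 0.50 ± 0.15 (adjusted p = 0.276 in limma). Apcs had -0.14 ± 0.08 in pool 2 and -0.35 ± 0.08 in pool 1, and Serpina3c -0.22 ± 0.09 and -0.26 ± 0.09 (pool 2 and pool 1). A2m had -0.17 ± 0.15 in pool 2 and -0.12 ± 0.15 in pool 1. No member passed the test of a pool difference with TCDD, which 0.0577% of probe sets did. With PCB 126 the slopes were -0.45 ± 0.10 in pool 2 and -0.44 ± 0.11 in pool 1 for Mug1, -0.29 ± 0.09 and -0.37 ± 0.10 for Serpina3c, -0.21 ± 0.08 and -0.34 ± 0.08 for Apcs and -0.34 ± 0.15 and -0.50 ± 0.16 for A2m. No member and 0% of probe sets differed between pools there (91 had an unadjusted p below 0.05 in limma), and no member did without the array that stood apart, with pool differences between -0.05 and 0.16 for the brightest probe sets.

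The level of the members differed between the pools at 7 of 8 probe sets, in both directions. That count includes M22670cds_g_at, which passed the filter through 2 PCB 126 arrays of pool 1 alone (3.99 at 1 pM and 3.82 at 0.1 nM). For it a higher level in pool 1 is therefore no support. Across the array 40% of probe sets were called higher in pool 2 and 39.7% lower, so such a difference was common. Serpina3c was higher in pool 2 by 1.94 ± 0.22 log2 (adjusted p = 3.12e-08 in limma), A2m M23566exon_s_at by 1.45 ± 0.34, Apcs by 1.05 ± 0.21 and A2m rc_AA900582_at by 0.93 ± 0.28. The other A2m probe sets were lower in pool 2, M22670cds_at with -1.10 ± 0.16 and rc_AI113046_at with -0.98 ± 0.12, so probe sets of A2m disagreed in direction, and M22670cds_g_at had -0.45 ± 0.08. Mug1 had -0.45 ± 0.34 (adjusted p = 0.224). With the arrays centred on their medians 6 of 8 remained past the threshold with the same signs, M22670cds_g_at being the exception at -0.18 ± 0.09 (adjusted p = 0.059), and the median pool difference of the whole array was 0.296 log2, against 0.024 as deposited. Pool, animals and handling cannot be told apart.

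Within a pool, Serpina3c and Apcs followed each other most closely among the brightest probe sets, with Pearson r over the arrays of 0.90 in pool 2 (15 arrays) and 0.93 in pool 1 (11 arrays). Mug1 had r of 0.68 with Serpina3c and 0.54 with Apcs in pool 2, and 0.90 and 0.93 in pool 1. A2m had r between 0.59 and 0.84 with the other members in pool 2 and between 0.57 and 0.61 in pool 1. The arrays share pools and dose series, so these values only describe the series.

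The genes most like each member were ranked by the smaller of the within-pool correlations, over 15 arrays of pool 2 and 11 of pool 1, among 3030 genes. For Serpina3c they were Cyp2b3 (smaller r 0.95), the retinaldehyde-oxidizing Aldh1a1, Cyp2c7 and Cyp2c6v1 (0.94 each) and Ugt2b (0.93), that is, P450s, a dehydrogenase and a glucuronosyltransferase of the liver. Cyp2c7 had slopes of -0.36 ± 0.06 with TCDD and -0.35 ± 0.07 with PCB 126. For Apcs they were Prnp (0.94), the prion protein gene, Kynu (0.91), an enzyme of tryptophan breakdown, Spp2 (0.89), and Enpp3 and Ugt2b (0.88 each). For Mug1 they were the coagulation factor F9 (0.89), Jun (0.84), Slc37a4 and Slc28a2 (0.83 each) and Maob (0.82). For A2m they were the myosin light chain Myl9 (0.85), Aopep (0.84), the actin-binding Tagln (0.81), Tsc22d1 (0.80) and the actin Acta1 (0.77). Slopes of Tagln were -0.28 ± 0.09 with TCDD and -0.48 ± 0.09 with PCB 126, and those of Acta1 -0.40 ± 0.11 and -0.63 ± 0.11.

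Tagln is also a marker of stellate cells and fibroblasts, cells that could have come along with the hepatocytes. Of 7 such markers all 7 were on the array and 5 were kept, with Col1a2 and Des dim, and Tagln fell with PCB 126 while none passed with TCDD. The log2 of their summed signal in pool 2 was 9.0 to 10.33 at or above 10 nM TCDD, 9.08 to 9.28 at or above 10 nM PCB 126 and 11.2 with vehicle. For pool 1 the range was 9.06 to 9.63, 7.72 to 8.83 and 10.69 in the same order. The other kept markers of this list did not pass with either chemical. The collagen genes Col1a1 and Col3a1 had slopes between 0.00 and 0.02 with both chemicals. Acta2 had -0.01 ± 0.03 with TCDD and -0.05 ± 0.03 with PCB 126, and Timp1 0.05 ± 0.03 and 0.00 ± 0.03. Tagln had a median value of 9.58, against 3.63 to 6.14 for these, so by the medians it weighs most in the summed signal. Of 7 Kupffer cell markers 4 were on the array and 3 were kept, with C1qb dim, and Lyz2, a lysozyme, fell by 0.19 ± 0.04 log2 per decade with TCDD and by 0.17 ± 0.04 with PCB 126 (adjusted p = 0.00915 and 0.0222 in limma). The other kept Kupffer markers did not pass, Cd14 with 0.13 ± 0.04 and 0.07 ± 0.04 and Ptprc with -0.02 ± 0.03 and 0.05 ± 0.03, and Lyz2, with a median value of 8.0 against 4.76 and 4.39, makes up most of the summed signal. The summed Kupffer signal in pool 2 was 7.86 to 8.36 at or above 10 nM TCDD, 8.12 to 8.19 at or above 10 nM PCB 126 and 8.99 with vehicle. In pool 1 it was 7.4 to 7.42, 7.7 to 7.82 and 8.58. These summed levels, in which Tagln and Lyz2 have the highest medians, were lower at doses at which the members were lower. The part of such cells in the members' values was not tested. Of 5 endothelial markers 1 was kept, Kdr, and of 5 cholangiocyte markers 2, Epcam and Spp1, and none of these 3 passed in either slope.

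In the macroglobulin and thioester family the kept genes other than A2m and Mug1 were C3, the central complement component, with 0.00 ± 0.03 log2 per decade with TCDD and 0.04 ± 0.03 with PCB 126, and Pzp, with 0.02 ± 0.03 and 0.01 ± 0.03, and neither passed the test. Among 11 kept serpins other than Serpina3c, Serping1, the inhibitor of the first complement protease, rose by 0.12 ± 0.03 with TCDD and by 0.10 ± 0.03 with PCB 126 (adjusted p = 0.0144 and 0.0426 in limma), and none fell. Probe sets called higher made up 1.64% of all with TCDD and 1.56% with PCB 126. Serpina3n, a relative of Serpina3c that rises in the acute phase, had 0.07 ± 0.03 and -0.02 ± 0.03 and did not pass. Of 11 other protease inhibitors, Ambp, the precursor of alpha-1-microglobulin and bikunin, fell by 0.13 ± 0.03 with TCDD and by 0.12 ± 0.03 with PCB 126, and no other passed. Of the 3 other kept pentraxins none passed, and Crp, the C-reactive protein gene, had 0.03 ± 0.05 with TCDD and -0.09 ± 0.05 with PCB 126.

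Acute phase genes that rise in inflammation numbered 18 kept of 25 listed. With TCDD 3 rose and none fell, Lbp, which binds endotoxin, by 0.22 ± 0.05, the siderophore-binding lipocalin Lcn2 by 0.11 ± 0.03 and the fibrinogen chain Fgg by 0.11 ± 0.03. With PCB 126 Lcn2 rose by 0.10 ± 0.03 and none fell. The median slope of this list, by the brightest kept probe set of each gene, was 0.05 with TCDD and 0.03 with PCB 126. Over the brightest kept probe sets of all genes it was -0.01 and 0.005. Of 7 acute phase genes that fall in inflammation, such as Alb and Ttr, none passed in either direction, with median slopes of -0.02 and 0.01. The contrast between these lists and the members was known when the members were chosen and is not independent evidence.

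In the regulatory genes of interleukin 6, glucocorticoid and growth hormone signalling, 16 kept, 1 passed. Cebpb, which encodes C/EBP beta and takes part in inducing acute phase genes, rose by 0.30 ± 0.05 with TCDD and by 0.24 ± 0.05 with PCB 126 (adjusted p = 0.00335 and 0.0105 in limma). Il6st, the signalling chain of the interleukin 6 receptor, had 0.07 ± 0.03 and -0.05 ± 0.03, Stat3 0.01 ± 0.02 and -0.03 ± 0.02, and the growth hormone receptor Ghr -0.06 ± 0.02 and -0.05 ± 0.02, none of which passed. Of 3 kept receptors that take up glycoproteins and inhibitor complexes, the asialoglycoprotein receptor gene Asgr2 fell by 0.14 ± 0.03 with TCDD (adjusted p = 0.00484 in limma) and had -0.04 ± 0.03 with PCB 126. Asgr2 was dim, with values from 3.12 to 4.53 and a median of 3.44, below the filter level of 3.71. In the AhR battery 5 of 7 genes rose with TCDD (Cyp1a1, Cyp1a2, Cyp1b1, Aldh3a1 and Nqo1) and 4 of 7 with PCB 126, where Cyp1a1 had 0.73 ± 0.21 (adjusted p = 0.0535 in limma). This PCB 126 fit holds the 1 pM array of pool 2 that stood apart, with Cyp1a1 at 10.80, and is given only with it. At 10000 nM PCB 126 Cyp1a1 was 12.05 in pool 2 and 12.43 in pool 1, against 3.28 and 3.45 with vehicle.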

How the data were processed

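Gene expression was measured on 26 short-oligonucleotide arrays. The deposited table holds log2 values from -1.43 to 15.01, made by the authors with GCRMA 2.8.0, with RMA also named, per the submitters' processing notes. Its settings are not stated there. GCRMA compresses differences between dim values. Groups came from the labels, which give chemical, dose and pool. Without 59 control probe sets, 8740 remained, and the 5197 were kept whose second-highest value exceeded the median of 3.71. Named were all member probe sets, Cyp1a1, list genes past the threshold and the 5 genes most like each member, and other list genes with values were chosen after these were seen. Slopes and calls of list and marker genes are those of the brightest kept probe set of each gene. Other probe sets of these genes are not described, while members were counted over all their kept probe sets.

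Models were fitted with limma 3.58.1 in R 4.3.3 (eBayes with trend and robust, Benjamini-Hochberg over the 5197 probe sets, threshold 0.05): a trend model (20 residual degrees of freedom), a model of 15 groups (10), quadratic terms (18) and slopes by pool (16). Doses with 1 array borrow the spread of the others. Pool entered as a block, since by the labels arrays of a pool hold cells of the same animals. Deviations of same-pool arrays correlated at r = 0.461 to 0.892 over 11 groups. No 2 arrays were identical (highest r 0.998). The steps were checked on simulated data. Members and lists were chosen with earlier results of these data known. Alternatives left out the block, the filter, single arrays, pools or doses, or centred the arrays. Promoter sequences are from RefSeq, GRCr8.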

Additional observations from a re-analysis of the deposited data

Results flagged for a closer look

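The difference between TCDD and PCB 126 in A2m (M23566exon_s_at) at 0.1 nM was -2.86 ± 0.42 log2 (TCDD minus PCB 126). It is listed because the chemicals differed by a direct test at the same dose (adjusted p = 0.0158 in limma), with TCDD lower in both pools, at 6.29 and 4.04 against 8.59 and 7.46. At 10 nM the difference was -0.24 ± 0.42. Another A2m probe set, rc_AA900582_at, had -1.61 ± 0.64 at 0.1 nM and did not pass.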

How the results depend on the processing

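Each dose had at most 1 array per pool, there were 2 pools, and A2m probe sets such as M22670cds_g_at lay near or below the filter level. How far these bear on the counts was not tested. The TCDD slope count, 3, was 5 without the highest doses, 1 without the filter and at doses held by both pools, and 0 with centred arrays, in pool 1 or pool 2 alone and with arrays of that chemical only. The PCB 126 slope count, 6, was 3 at doses held by both pools and in pool 2 alone, 2 without the highest doses and 0 in pool 1 alone. With TCDD the count at the 2 highest doses, 1, was 0 without the filter, with centred arrays and without trend and robust settings. Calls over all probe sets, in either direction, moved as well. For the TCDD slope they went from 3.1% to 3.71%, 1.34%, 2.16%, 1.98%, 0%, 0.231% and 0.885%, in the order given. For the PCB 126 slope they went from 4.25% to 2%, 2.12%, 2.04% and 0%, in the order given. At the 2 highest TCDD doses they went from 2.25% to 0.973%, 1.27% and 2.12%.

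Without the pool as a replicate block the counts were 0 for the TCDD slope, 1 for the PCB 126 slope, 0 for each chemical at the 2 highest doses and 0 at 0.1 nM. Of all probe sets 0.75% were then called in either direction for the TCDD slope and 1.08% for the PCB 126 slope. At the 2 highest doses it was 0.52% with TCDD and 0.75% with PCB 126. The counts of the slope difference, the curvature terms, the mean over shared doses and the other shared doses were 0, as with the block.

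Leaving out 1 array at a time, the TCDD slope count ran from 0 to 4, the PCB 126 slope count from 0 to 7, the TCDD count at the 2 highest doses from 0 to 3, that of PCB 126 from 1 to 2, the count at 0.1 nM from 0 to 3 and that of the mean over shared doses from 0 to 1, which was 1 without the 0.1 nM TCDD array of pool 2. Without that array 17% of all probe sets were called at 0.1 nM. The pool count was 7 in all 26 such fits. Centring changed the split of calls over all probe sets. Between pools it gave 2959 higher and 1409 lower, against 2080 and 2065 as deposited. For the PCB 126 slope it gave 50 higher and 163 lower, against 81 and 140. At the 2 highest TCDD doses it gave 57 higher and 9 lower, against 70 and 47, and for the mean over shared doses 3 higher and 20 lower, against 3 and 3. Of 4040 alternative values of single members, 129 had the other sign, 104 lost a call and 16 gained 1.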
